A study of Vitis vinifera with 6 samples.

Results

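Abscisic acid is the plant hormone best known in seeds for promoting maturation, desiccation tolerance and dormancy. Its synthesis starts from plastid carotenoids, and the 9-cis-epoxycarotenoid dioxygenases (NCED) cleave epoxycarotenoids to xanthoxin in what is widely regarded as the rate-limiting step. Its breakdown starts with hydroxylation at the 8' position by cytochrome P450 enzymes of the CYP707A family, so that the amount of hormone in a tissue depends on both families. The genes described here are 5 of the 29536 grapevine genes with readable values. They were chosen by identifier, with earlier results of these data known. They are the NCED genes VIT_19s0093g00550, VIT_10s0003g03750 and VIT_02s0087g00930 for synthesis, and the CYP707A genes VIT_02s0087g00710 and VIT_18s0001g10500 for breakdown. The first digits of an identifier give the chromosome, so these genes lie on chromosomes 19, 10, 2, 2 and 18 of the 12X V1 gene set. The expression table pairs no identifier with a name, and the family of each gene rests on its listing as such in the choice of the genes. A RefSeq gene table of the grapevine assembly ASM3070453v1 lists NCED1 on chromosome 19 and NCED2 on chromosome 10, the chromosomes of the first NCED identifiers, without pairing the symbols with them.

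RNA from the seed content of young berries was sequenced in 6 libraries, each from a different F1 hybrid of a cross between the cultivars Red Globe and Crimson Seedless. The seedless class held the seed traces of 3 sdi+ hybrids, and the seeded class held the seeds of 3 sdi- hybrids. Libraries are given below in the order of their replicate numbers. In stenospermocarpic fruit the seed begins to form and then stops growing, which leaves the trace. All plants were grafted on the same rootstock and grown in the same field, berries were collected 4 weeks after anthesis at 10 to 12 mm, and the content of 12 to 50 fruits was pooled for each extraction. Genotype and tissue go together in this design, so that an effect of sdi and the difference between a trace and a seed cannot be told apart. A library is a mixture of the tissues in a trace or seed, and fewer cells of a type and less RNA per cell cannot be told apart either. The labelled tissue was not checked against markers, because the identifiers carry no names.

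Levels are RPKM, a read count divided by the length of the gene model and by the size of the library, which allows genes to be compared with each other. The whole reads behind the values could be recovered from their steps, and they added up to between 6275940 and 9339637 per library. Seedless replicate 1 stood apart from the other libraries. Its Pearson correlations across genes on the log2(RPKM + 1) scale were 0.847 and 0.862 with the other seedless libraries, which correlated with each other at 0.944. The seeded libraries correlated with each other at 0.959 to 0.961. Fold changes and sums are therefore also given without seedless replicate 1.

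The NCED genes had higher mean levels in seed traces than in seeds, and the CYP707A genes had lower mean levels. The genes on chromosomes 19, 10 and 18 passed the expression filter of 1 RPKM in at least 3 libraries and could be tested, whereas both chromosome 2 genes were below it. Of the 3 tested genes, 0 passed the threshold of an adjusted p of 0.05 (limma on log2(RPKM + 1), Benjamini-Hochberg over 18749 tested genes), where 12.3% of all tested genes did. At an unadjusted p of 0.05, 1 of the 3 passed, against 31.6% of all tested genes. Limma's voom on the recovered reads also called 0 of the 3, where 9.42% of 18741 genes were called. Of all tested genes 7.18% were called higher and 5.1% lower in traces. Values of the classes did not overlap for 3 of the 5 genes, with the NCED genes of chromosomes 19 and 2 higher in traces and the CYP707A gene of chromosome 2 lower. Among the 24536 genes above 0 in any library, 35.3% did not overlap, 19.0% with higher and 16.3% with lower values in traces, so that the share among 5 genes is read only as a description.

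**Figure D1:**
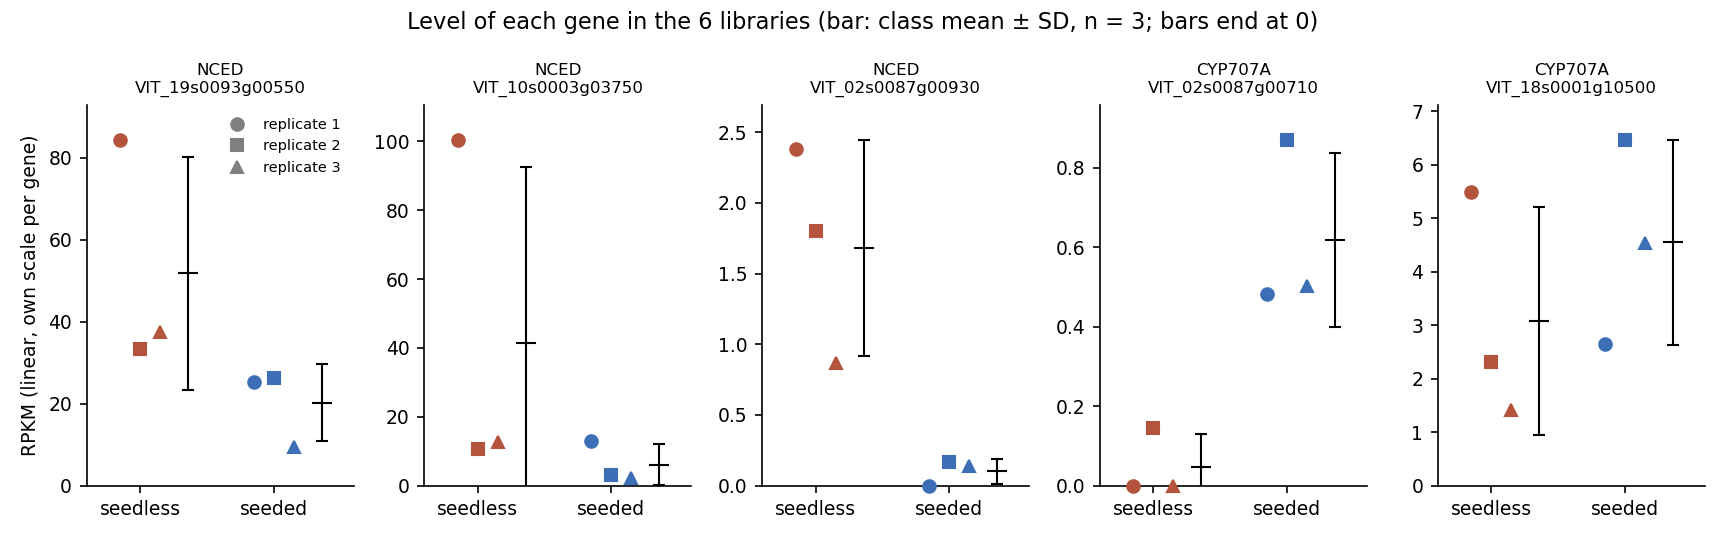
RPKM of the 3 NCED and 2 CYP707A genes in each library, with a linear axis of its own for each gene. Points are libraries, with the marker shape giving the replicate, and black bars are class means with the SD (n = 3), which end at 0 where the SD exceeds the mean. Seedless replicate 1 is the highest library for each NCED gene, at 84.4, 100.6 and 2.38 RPKM.

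The NCED gene of chromosome 19, VIT_19s0093g00550, had the highest level of the 5 genes in 5 of the 6 libraries. It stood at 84.4, 33.3 and 37.5 RPKM in the traces and at 25.2, 26.2 and 9.39 RPKM in the seeds. Every trace was thus above every seed library, with the smallest gap between 33.3 RPKM in traces and 26.2 in seeds. Seeded replicate 3 was low within its class, and seedless replicate 1 was high within its own. These values rest on 1392, 573 and 568 reads in traces and 453, 559 and 162 reads in seeds. Among all genes of a library, 85.4% to 94.8% had a lower level in traces and 64.2% to 81.1% in seeds. Traces averaged 51.8 ± 28.3 RPKM and seeds 20.3 ± 9.43 RPKM (SD, n = 3 each), a ratio of 2.55. The log2 fold change of 1.31 had an SE of 0.49 and a 95% interval of 0.13 to 2.49, and missed the threshold (limma adjusted p = 0.126). When seedless replicate 1 was left out, the mean of the traces was 35.4 RPKM and the log2 fold change 0.90 (limma adjusted p = 0.211). With seeded replicate 3 left out instead, the fold change was 0.86 on this scale (limma adjusted p = 0.285).

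The NCED gene of chromosome 10, VIT_10s0003g03750, differed most between libraries of the same class. It had 100.6 RPKM in seedless replicate 1, against 10.7 and 12.8 RPKM in seedless replicates 2 and 3. In seeds it had 12.9, 3.05 and 2.21 RPKM. The classes overlapped, since seeded replicate 1 was above seedless replicates 2 and 3, while the other seed libraries were below all traces. The reads behind these values were 1655, 183 and 193 in traces and 231, 65 and 38 in seeds, so that counting error is small beside the gap within the seedless class. Seedless replicate 1 was 8.58 times the mean of the other traces for this gene and 2.38 times for the chromosome 19 gene. On the log2(RPKM + 1) scale its deviation from the other traces was 3.00, above that of 99.4% of the tested genes, whose median was -0.02. The chromosome 19 NCED gene deviated by 1.23 and the chromosome 18 CYP707A gene by 1.19, above 92.3% and 91.9% of the tested genes. Traces averaged 41.3 ± 51.3 RPKM of the chromosome 10 gene and seeds 6.05 ± 5.93 RPKM (SD, n = 3 each). Its log2 fold change was 2.17 with an SE of 0.94 and a 95% interval of -0.09 to 4.42 (limma adjusted p = 0.172). Without seedless replicate 1 the seedless mean fell to 11.7 RPKM and the log2 fold change to 1.17 (limma adjusted p = 0.251).

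The NCED gene of chromosome 2, VIT_02s0087g00930, was expressed at a low level in traces and was close to the detection limit in seeds. The traces held 2.38, 1.80 and 0.865 RPKM, from 33, 26 and 11 reads. The seeds held 0, 0.167 and 0.138 RPKM, from 0, 3 and 2 reads. All traces were above all seed libraries, and in seeds each library was at or below 3 reads, which on this gene model are worth 0.167 to 0.207 RPKM. Pooled over the class, 70 reads in traces stood against 5 in seeds, a ratio of read rates of 16.2 with an exact 95% interval of 6.63 to 51.5. Without seedless replicate 1 the ratio was 12.9, with an interval of 5.08 to 42.2. Such intervals and floors cover counting error only and say nothing of the spread between hybrids. They take reads as independent, and are too narrow where reads are PCR copies of the same molecule. The gene reached 1 RPKM in 2 libraries and was therefore not tested. With no filter on low values, its log2 difference of 1.24 passed (limma adjusted p = 0.0357), where 7.83% of 24536 genes were called. That fit took every gene above 0 in any library. The seed values there rest on 0, 3 and 2 reads, so nothing is read from this call. With voom on all genes of at least 10 recovered reads the gene did not pass (limma adjusted p = 0.0502), where 7.88% of 21363 genes were called. The gene met that minimum only through the traces, where it is high, so nothing is read from this p. Without seedless replicate 1 its log2 difference was 1.06, given with no test.

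Among the breakdown genes, VIT_18s0001g10500 on chromosome 18 was the more abundant in every library. The traces held 5.49, 2.32 and 1.42 RPKM and the seeds 2.65, 6.47 and 4.54 RPKM. The classes overlapped, because seedless replicate 1 was above seeded replicates 1 and 3, whereas the other traces were below every seed library. The values rest on 14 to 59 reads in traces and 31 to 90 reads in seeds. Traces averaged 3.08 ± 2.14 RPKM and seeds 4.55 ± 1.91 RPKM (SD, n = 3 each). The log2 fold change of -0.51 had an SE of 0.44 and a 95% interval of -1.56 to 0.54, which leaves both directions possible (limma adjusted p = 0.464). Without seedless replicate 1 the seedless mean was 1.87 RPKM and the log2 fold change -0.91, with a limma adjusted p of 0.138.

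The other CYP707A gene, VIT_02s0087g00710 on chromosome 2, was near the detection limit in traces. The traces held 0, 0.144 and 0 RPKM, from 0, 2 and 0 reads, and the seeds 0.482, 0.871 and 0.502 RPKM, from 7, 15 and 7 reads. Every trace was below every seed library, in the opposite direction to the NCED gene with which it shares the scaffold of its identifier. A count of 0 on this gene model allows up to 0.225 and 0.245 RPKM in seedless replicates 1 and 3, which is below the lowest seed value. Pooled over the class, 2 reads in traces stood against 29 in seeds, so the read rate in seeds was 12.5 times that in traces, with an exact 95% interval of 3.17 to 108.3. Without seedless replicate 1 it was 8.29 times, with an interval of 2.10 to 71.7. The gene was under 1 RPKM in every library and was not tested. With no filter on low values its log2 difference of -0.62 missed the threshold (limma adjusted p = 0.0522). Its value of -3.30 by voom on genes of at least 10 reads missed it as well (limma adjusted p = 0.0586). The gene met that minimum only through the seeds, where it is high, so nothing is read from the voom p. Its log2 difference without seedless replicate 1 was -0.59, again with no test.

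**Figure D2:**
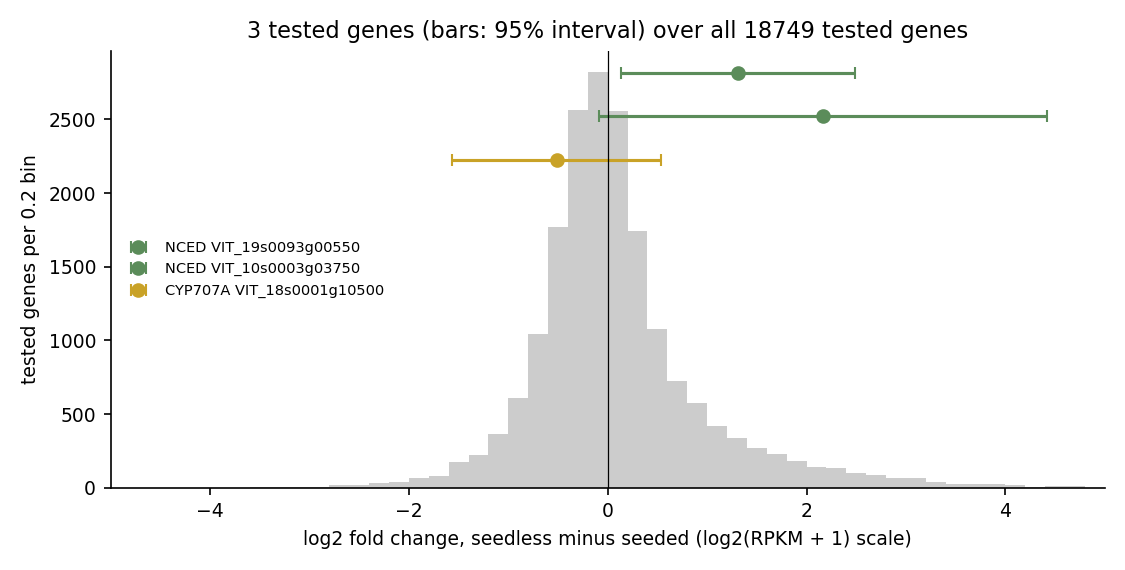
Log2 fold changes, seedless minus seeded, on the log2(RPKM + 1) scale. Points are the 3 tested genes with their 95% intervals, and the grey histogram holds all 18749 tested genes. The NCED genes lie at 1.31 and 2.17 and the CYP707A gene at -0.51, where the median of all tested genes is -0.04, and the intervals of the chromosome 10 NCED gene and of the CYP707A gene include 0.

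In traces, the NCED genes of chromosomes 19 and 10 held the first ranks, followed by the chromosome 18 CYP707A gene, the chromosome 2 NCED gene and the chromosome 2 CYP707A gene. The first ranks were exchanged in seedless replicate 1, where the chromosome 10 gene reached 100.6 RPKM and the chromosome 19 gene 84.4. In seeded replicates 2 and 3 the chromosome 18 CYP707A gene, at 6.47 and 4.54 RPKM, was above the chromosome 10 NCED gene at 3.05 and 2.21 RPKM, while in seeded replicate 1 the order was the other way round. The means of these neighbours in seeds, 4.55 and 6.05 RPKM, thus did not differ beyond their spread. In all 3 seed libraries the chromosome 2 CYP707A gene was above the chromosome 2 NCED gene, and in all traces it was below it. No test was made of differences between genes.

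Sums cover the chosen genes only, since no other gene of either family could be identified. The summed level of the 3 NCED genes was 187.4, 45.8 and 51.2 RPKM in the traces. In the seeds it was 38.1, 29.4 and 11.7 RPKM. The classes did not overlap, but the smallest gap, between 45.8 and 38.1 RPKM, was small beside the range within either class. The means were 94.8 ± 80.2 and 26.4 ± 13.4 RPKM (SD, n = 3 each), a ratio of 3.59 that was 1.84 without seedless replicate 1. The summed level of the 2 CYP707A genes was 5.49, 2.46 and 1.42 RPKM in traces and 3.13, 7.34 and 5.04 RPKM in seeds. These classes overlapped through seedless replicate 1, and the means were 3.12 ± 2.11 and 5.17 ± 2.11 RPKM (SD, n = 3 each). Without seedless replicate 1 the CYP707A mean in traces was 1.94 RPKM.

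Within a library, the share of NCED in the summed level of all 5 genes does not depend on how libraries are scaled to each other. It was 97.2%, 94.9% and 97.3% in the traces and 92.4%, 80.0% and 70.0% in the seeds. All traces were above all seed libraries, with 94.9% as the lowest trace and 92.4% as the highest seed library. The class means were 96.5% ± 1.35 and 80.8% ± 11.2 (SD, n = 3 each), and without seedless replicate 1 the mean of the traces was 96.1%. The difference of 15.6 percentage points depended more on the seed libraries, at 10.2 without seeded replicate 3 and 21.5 without seeded replicate 1. The sum of the 3 chosen NCED genes thus exceeded that of the 2 chosen CYP707A genes 18.6 to 36.1 times in traces. In seeds it was 2.33 to 12.2 times. Unidentified genes of either family are not part of this ratio. Seedless replicate 1, which was far above the others in summed NCED level, was within the range of the other traces in this ratio, at 34.1. No p is given for sums and shares, since an exact permutation test of 3 against 3 could not go below 0.1. The genes were chosen with earlier results known, which limits these values and the p values of the single genes alike.

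**Figure D3:**
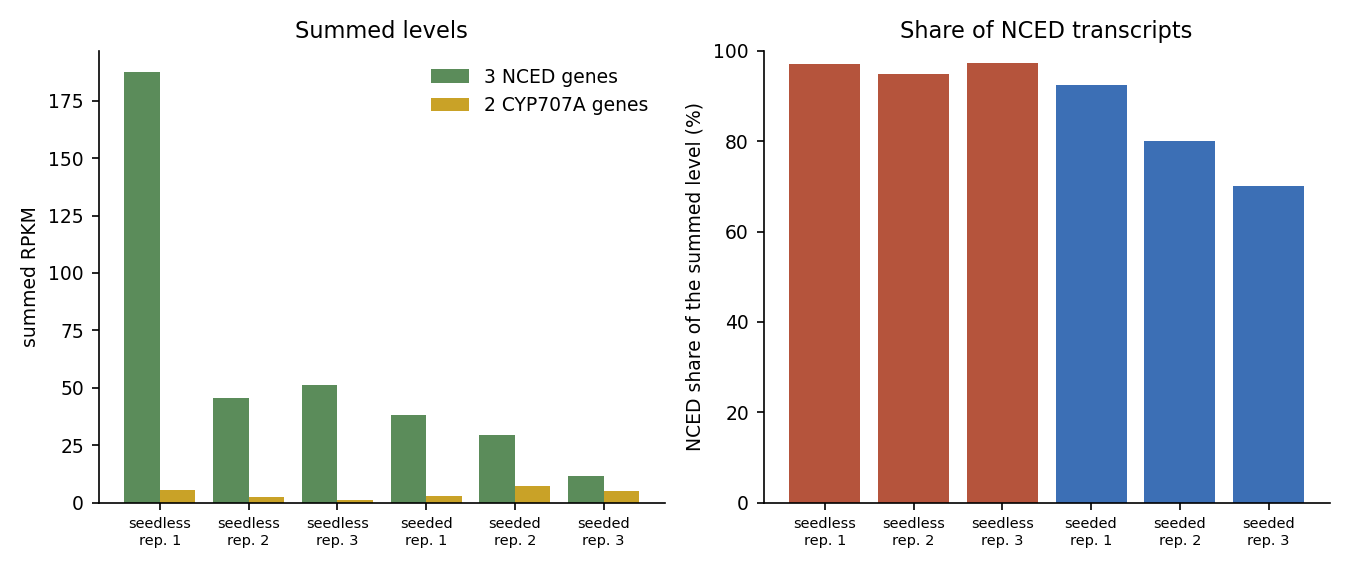
Left, summed RPKM of the 3 NCED genes (green) and of the 2 CYP707A genes (yellow) in each library; right, the NCED share of both sums together, in percent, with seedless libraries in red and seeded libraries in blue. The NCED sum is highest in seedless replicate 1, at 187.4 RPKM, while the NCED share is at 94.9% to 97.3% in all traces and falls to between 70.0% and 92.4% in seeds.

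The make-up of the NCED sum differed between libraries. The chromosome 10 gene supplied 53.7% of it in seedless replicate 1, 23.3% and 25.0% in the other traces, and 33.8%, 10.4% and 18.8% in the seeds. The classes overlapped in this share. In every library but seedless replicate 1 the chromosome 19 gene supplied the larger part, from 66.2% in seeded replicate 1 to 89.0% in seeded replicate 2.

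The direction of the tested fold changes was the same whichever library was left out. For the chromosome 19 NCED gene the log2 fold change ranged from 0.86 to 1.56, for the chromosome 10 NCED gene from 1.17 to 2.81, and for the chromosome 18 CYP707A gene from -0.91 to -0.20. None of the 3 passed limma's threshold in any of these fits. Of all tested genes, 15.5%, 8.67% and 7.29% passed without seedless replicate 1, 2 or 3. The shares were 3.58%, 2.29% and 2.39% without seeded replicate 1, 2 or 3, so few genes of any kind passed there. The lowest value of the chromosome 10 gene came without seedless replicate 1, and the CYP707A value nearest to 0 came without seedless replicate 3.

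**Figure D4:**
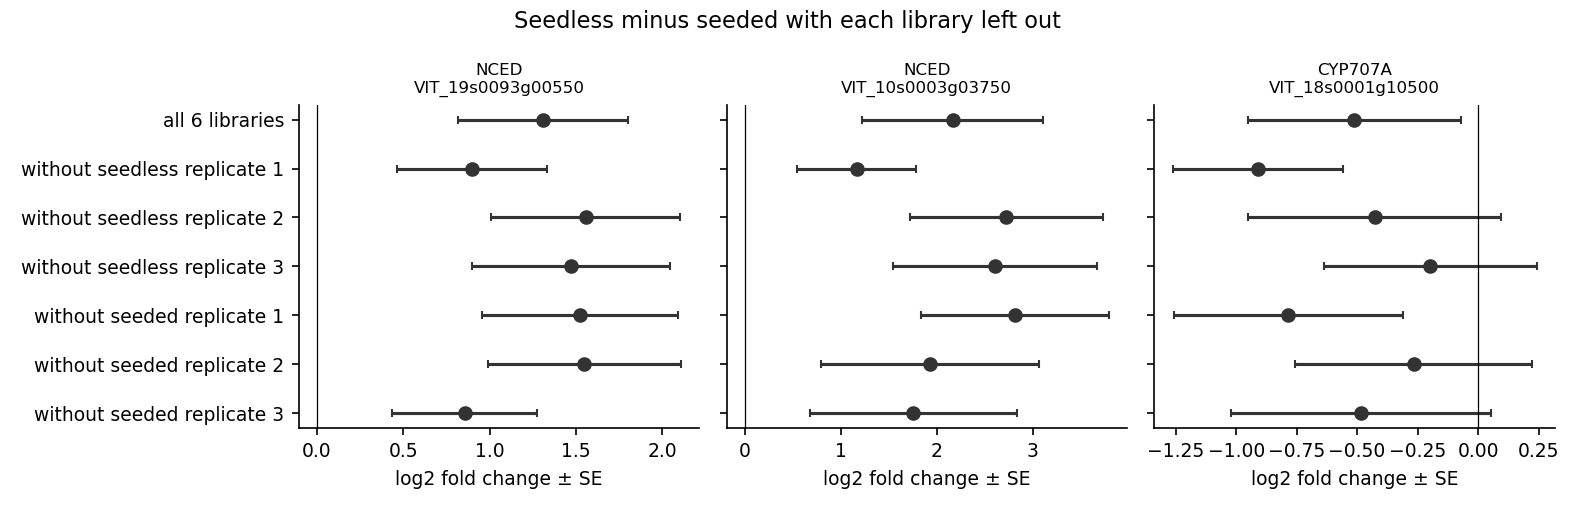
Log2 fold change, seedless minus seeded, with its SE for the 3 tested genes in the fit of all 6 libraries and in fits that leave out 1 library. The NCED genes stay above 0, at 0.86 to 1.56 and 1.17 to 2.81, and the CYP707A gene stays below 0, at -0.91 to -0.20.

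The pair of genes on chromosome 2 shares the scaffold of its identifiers, with 19 listed identifiers between them. Of these, 13 were tested and 3 were called (23.1%, against 12.3% of all tested genes). The 3 were named after their values were seen, and the table gives them no function. VIT_02s0087g00740 rose, with 16.0, 16.1 and 16.5 RPKM in traces and 10.6, 10.2 and 9.57 in seeds (log2 fold change 0.63, limma adjusted p = 0.0329). VIT_02s0087g00810 fell, with 2.61, 2.25 and 2.27 RPKM in traces and 5.98, 11.9 and 9.48 in seeds (log2 fold change -1.54, limma adjusted p = 0.0185). Both were also called without seedless replicate 1, at 0.64 and -1.59 on the log2 scale (limma adjusted p = 0.0349 and 0.021). The third, VIT_02s0087g00750, had 15.7, 2.73 and 2.23 RPKM in traces and 0, 0.0879 and 0 in seeds, with seedless replicate 1 far above the others. It was called with all libraries (limma adjusted p = 0.0484) and without seedless replicate 1 (log2 fold change 1.75, limma adjusted p = 0.0086). The gene met the filter only through the traces, where it is high, so that its calls depend on a filter that the difference itself decides. Nothing is read from them or from the count of 3. Without seedless replicate 1 the count was 4 of 13 (30.8%, against 15.5% of all tested genes), from which nothing is read either.

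For each tested gene, the gene with the most similar profile was sought among 14219 genes averaging at least 5 RPKM, by the Pearson correlation of log2(RPKM + 1) over the 6 libraries. The profile of the chromosome 19 NCED gene was matched most closely by VIT_06s0004g04320 (r = 0.994), at 13.1, 6.09 and 5.61 RPKM in traces and 3.82, 3.81 and 1.26 in seeds. The chromosome 10 NCED gene was matched by VIT_12s0035g01260 (r = 0.997), at 56.1, 20.8 and 23.3 RPKM in traces and 24.9, 12.2 and 10.9 in seeds. The chromosome 18 CYP707A gene was matched by VIT_12s0057g01080 (r = 0.99), at 25.7, 19.2 and 15.4 RPKM in traces and 20.1, 30.6 and 25.7 in seeds. An r above 0.95 with the respective gene was found for 73, 127 and 33 genes, or 0.513%, 0.893% and 0.232% of those compared. The coefficients rest on 6 points that share library, depth and the position of seedless replicate 1, and they were not computed without it.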

How the data were processed

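The authors deposited 1 table of RPKM values for the 6 libraries, whose header names the 12X V1 genes. The libraries were made with a stranded mRNA kit, per the labels' protocols. Per the submitters' processing notes, edgeR 2.2.6, HTSeq 0.5.4p5 and TopHat2 2.0.13 were used, with no role stated, and neither the genome build nor the strand setting is given in the sources used. Without the strand setting, reads of overlapping antisense genes cannot be set apart, and near-identical copies may share reads. Of 29548 genes listed, 12 with an unreadable value were left out.

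For each gene a length was searched at which all 6 RPKM values become whole reads. This was found for 99.9% of 24536 genes above 0, and 23321 genes were used, at a chance fit of at most 0.01. The search was tested on simulated data. The fitted library totals were 6576771 to 9267652, and the recovered reads came to 93.3% to 103.7% of them, so the divisor was not the plain sum of gene reads.

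Classes follow the phenotype in the labels, although seeded samples carry Seededless in their titles. The 18749 genes that reached 1 RPKM in 3 or more libraries were compared as log2(RPKM + 1), which understates changes of low genes, with limma 3.58.1 in R 4.3.3 (eBayes with trend, two-sided, Benjamini-Hochberg, threshold 0.05). The fit was tested on simulated data. Hybrids are the replicates. Alternatives changed the pseudocount, filter, scaling, variance model, library weights, replicate block and unit (voom on recovered reads), and left out each library. Reads were recovered in Python 3.11.15 with numpy 2.4.6, and figures drawn with matplotlib 3.10.9.

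The genes and lists were chosen with earlier results of these data known. The naming rule took the 5 genes and the most similar gene of each tested one, and the neighbours on chromosome 2 were added by their count. A list of other abscisic acid genes was planned from descriptions, but 0 identifiers could be matched to any, so it was not used.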

Additional observations from a re-analysis of the deposited data

How the results depend on the processing

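No value of the 5 genes turned direction in the 77 comparisons with an alternative, and 71 kept their side of the threshold or moved by less than the spread within classes. The main fit, with the filter of 1 RPKM and no block, called 0 of the 3 genes it tested. The number called was 1 of 5 with no filter on low values and 1 of 3 with the replicate block. With no filter it was the chromosome 2 NCED gene at 1.24, a call from which nothing is read (limma adjusted p = 0.0357, range over its tested alternatives 0.0357 to 0.0502). Under the replicate block the chromosome 10 NCED gene passed with the log2 value of 2.17 (limma adjusted p = 0.0323, over all its alternatives 0.0323 to 0.378), and 1714 genes (9.14%) passed in all. Replicate numbers stand for different hybrids in the labels. Deviations of same-numbered libraries correlated at 0.066, 0.18 and 0.098, and each library correlated best with its own number. The labels give no pairing, and whether these small values differ from chance was not tested. The untested chromosome 2 genes moved with the pseudocount, to 3.16 (0.1) and 1.80 (0.5) for NCED and to -2.37 and -1.02 for CYP707A, because they lie near 0. They were given no value with quantile normalization, library weights, the variance model, the block or the 5 RPKM filter, which also leaves out the chromosome 18 gene. Over all genes, 3603 were called with library weights in place of 2303. Leaving out a library gave 429 to 2909 calls, with 1367 without seedless replicate 3 and 672, 429 and 449 without seeded replicate 1, 2 or 3; the cause was not tested. The summed NCED difference of 68.4 RPKM was 22.1 without seedless replicate 1. The summed CYP707A difference of -2.05 ranged from -0.96 to -3.23 without 1 library, lowest in size without seeded replicate 2 and largest without seedless replicate 1, and -1.19 and -3.07 without seedless replicate 3 and seeded replicate 1. The NCED share differed by 15.6 percentage points, or by 10.2 and 21.5 without seeded replicate 3 and 1. Voom on genes of at least 10 reads, the scaling by recovered reads, and the read ratios and neighbours without seedless replicate 1 were chosen after seeing the data. Depth limits the chromosome 2 genes most, with 0 to 33 reads in a library.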
